A study of Xenopus laevis with 6 samples.

Results

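Solitary shared regions are stretches of open chromatin that were listed at both late and early gastrula in Xenopus laevis ectoderm and that had no other listed region within 50 kb on either side. They were selected on distance and on presence in both lists alone, by merging the stage 12 and stage 10 lists of accessible regions wherever intervals overlapped by at least 1 bp on the 18 assembled chromosomes. Of 63505 merged regions, 29444 held intervals of both stages, and 2213 of these were solitary, which is 7.52% of the shared regions (95% Wilson interval 7.22% to 7.82%). The other 27231 shared regions serve as the comparison.

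The samples were ectodermal explants (animal caps) of the frog, cut at stage 9 and grown to stage 12, late gastrula, or to stage 10, early gastrula, with 3 libraries per stage and 2 explants in each library. No genotype, strain or treatment is given in the labels, so the groups differ in stage alone as far as the labels go. Accessibility was measured by ATAC-seq, in which the transposase Tn5 cuts and tags open DNA. The authors deposited 1 list of regions per stage, so all values below describe 2 combined lists and have no spread between libraries. Wilson intervals cover counting error only.

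Open chromatin in an embryo marks promoters and enhancers, the DNA where transcription factors bind and from which nearby or distant genes are switched on. Regulatory regions often occur in groups around developmental genes, and a region with no neighbour over a long distance is the other extreme of that arrangement. Animal cap cells are pluripotent when they are cut and become epidermis unless they receive other signals, so the interval between the stages covers the first steps of ectodermal commitment. Coordinates are of the build xenLae2. No gene annotation of that build was used, so sparse stretches are described by listed regions and not by genes.

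Because the intervals of both lists chose the solitary regions, their distances, their presence at both stages and the comparisons with other shared regions are descriptions, and no p-value is given for them. A pileup is the number of reads stacked over a summit, a point of peak signal in a region; whether reads or whole fragments were stacked is not given in the sources used here. It was recovered from the authors' fold enrichment and −log10 p at the best summit. The pileup was then divided by the floor of its list, the most common background value at its summits (4.701 at stage 12 and 2.204 at stage 10). This expresses each list in units of its own floor. Whether it makes pileups comparable between the 2 lists was not tested.

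The solitary regions were wide, with several summits each. Their median width was 961 bp (interquartile range 755 to 1199 bp), against 743 bp for other shared regions, a ratio of 1.29. Widths ran from 73 to 3024 bp. The median of the solitary regions was above that of the other shared regions on 18 of 18 chromosomes. At stage 12 the intervals in a solitary region covered a median of 929 bp, and at stage 10 they covered 802 bp. In 73.9% of solitary regions the stage 12 intervals covered more bases than the stage 10 intervals, against 70.3% of other shared regions. The background floor was also higher in the stage 12 list (4.701) than in the stage 10 list (2.204). Whether such a difference between the lists contributes to the covered width was not tested.

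A single summit at both stages was uncommon. It was found in 51 of 2213 solitary regions (2.30%, 95% Wilson interval 1.76% to 3.02%), against 9.15% of other shared regions (8.81% to 9.50%). The share was 2.71% among other shared regions 5 to 50 kb from a neighbour and 13.5% among those within 5 kb of one. At stage 12, 42.2% of solitary regions had 5 or more summits, against 26.7% of other shared regions. At stage 10 these shares were 32.6% and 22.7%. The median count was 4 summits in solitary regions at each stage, against 3 in other shared regions and 4 in those 5 to 50 kb from a neighbour. A solitary region was usually a single interval in each list, in 92.4% of cases, against 92.7% of other shared regions.

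**Figure D1:**
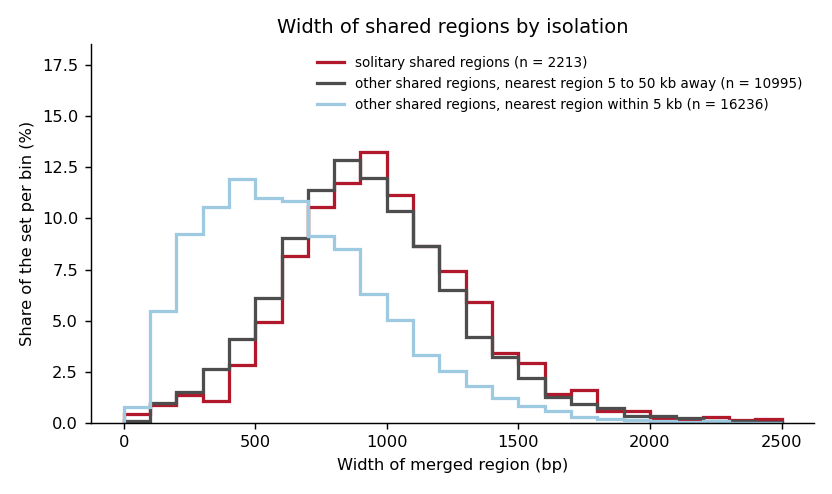
Width of merged regions in bp (x axis, bins of 100 bp) against the share of each set per bin in percent (y axis), for solitary shared regions and for other shared regions split by the distance to the nearest region; widths above 2500 bp are not drawn. The curve of the solitary regions lies close to that of regions 5 to 50 kb from a neighbour, whose median was 909 bp, and to the right of regions within 5 kb of one, whose median was 608 bp.

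The width depended on distance mainly at short range. Shared regions whose nearest neighbour lay within 1 kb had a median width of 561 bp, and the median was 704 bp at 1 to 5 kb, 894 bp at 5 to 20 kb and 942 bp at 20 to 50 kb. Beyond the 50 kb limit it was 956 bp at 50 to 100 kb, 970 bp at 100 to 200 kb and 995 bp over 200 kb (173 regions). The ratio of 1.29 therefore comes down to 1.06 when the comparison is limited to the 10995 other shared regions lying 5 to 50 kb from a neighbour.

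Reads stacked less high over solitary regions than over other shared regions as a whole, while their enrichment over local background was higher. At stage 12 the median pileup was 41.7 times the floor in solitary regions (interquartile range 27.0 to 62.8), against 47.6 times in other shared regions, a ratio of 0.875. At stage 10 it was 26.8 times the floor (19.5 to 39.5), against 34.5 times, a ratio of 0.776. The median of solitary regions was below that of other shared regions on 17 of 18 chromosomes at stage 12, chromosome 3S being the exception, and on 18 of 18 at stage 10.

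The local background under the same summits was lower still. It had a median of 2.25 times the floor in solitary regions at stage 12, against 3.68 times in other shared regions. At stage 10 the values were 1.87 and 3.27 times the floor. Other shared regions 5 to 50 kb from a neighbour lay in between, closer to the solitary ones. Their median background, divided by the floor, was 2.61 (stage 12) and 2.34 (stage 10). At stage 12 the background sat at the floor in 6.37% of solitary regions, against 1.95% of other shared regions, and at stage 10 in 9.35%, against 2.196%. Over these backgrounds the authors' fold enrichment had a median of 16.8 in solitary regions, against 12.5 in other shared regions, at stage 12, and of 11.5, against 9.15, at stage 10. Other shared regions 5 to 50 kb from a neighbour came close to the solitary ones in fold, at 15.9 at stage 12 and 10.8 at stage 10, and in pileup, at 45.5 and 29.9 times the floor.

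The direction of the difference in pileup depended on how the local background was handled. When all shared regions were divided into 4 equal groups by their stage 12 background, the solitary regions had the higher median pileup in every group, by 1.15, 1.20, 1.31 and 1.39 times from the lowest background to the highest. In the same division at stage 10 the ratios were 1.05, 1.18, 1.30 and 1.26. Fold enrichment is a ratio of pileup to local background, so a higher pileup at similar background restates the higher fold given above. These ratios are therefore no separate evidence. The comparison was with all other shared regions. Those of them farther from a neighbour, which came close to the solitary ones in fold, were not grouped by background. The group of lowest background held 49.4% of the solitary regions at stage 12 and 55.7% at stage 10. The lower median pileup thus accompanies the concentration of solitary regions at low backgrounds, and whether neighbouring open regions set those backgrounds was not tested.

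Among regions of similar pileup the solitary ones were also the wider. In the lowest 25% of shared regions by stage 12 pileup, solitary regions had a median width of 842 bp, against 567 bp for the others. In the highest 25% the widths were 1081 and 915 bp. From the lowest to the highest group the ratio of widths was 1.48, 1.38, 1.27 and 1.18. Grouped by stage 10 pileup it was 1.29, 1.41, 1.39 and 1.25. It thus rose from the lowest group before declining, while at stage 12 it declined throughout. Other shared regions 5 to 50 kb from a neighbour, against which the ratio over all pileups was 1.06, were not grouped by pileup. Whether the solitary regions are wider than those at similar pileup was therefore not tested.

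**Figure D2:**
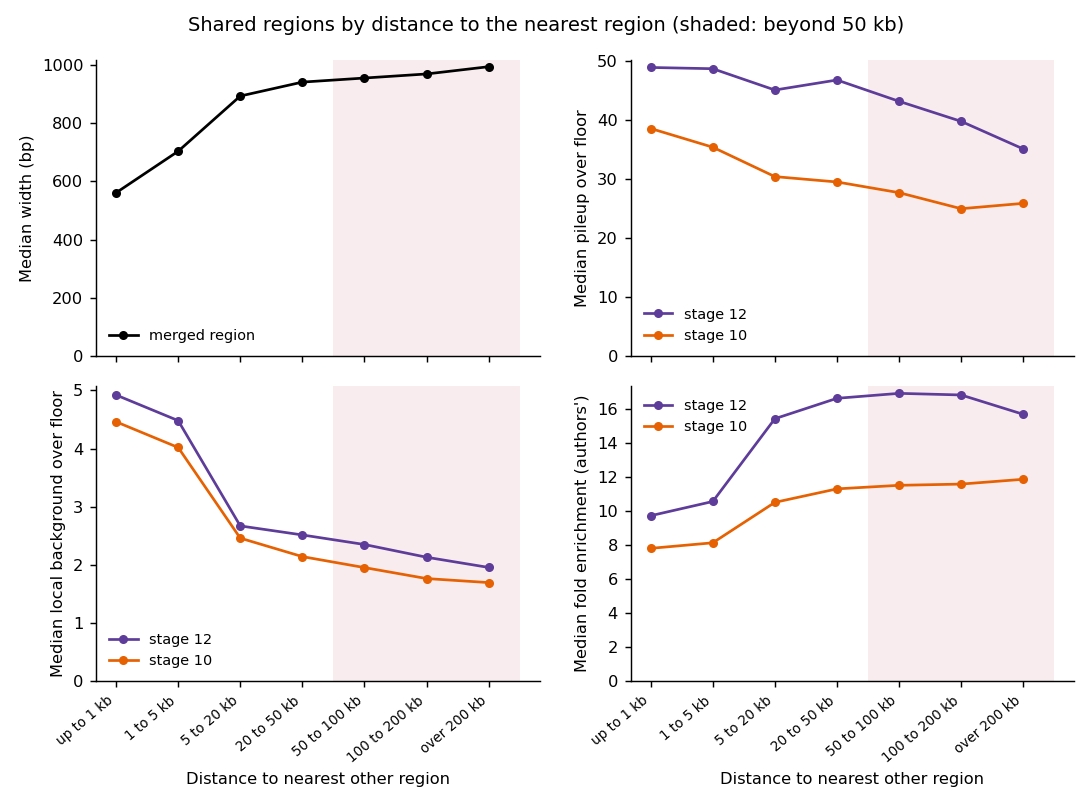
Medians over shared regions in 7 classes of distance to the nearest other merged region (x axis): width in bp, pileup over the floor, local background over the floor and the authors' fold enrichment (y axes), with stage 12 and stage 10 as separate lines and the solitary classes shaded. The largest steps in width, background and fold lie between the classes under 5 kb and the class of 5 to 20 kb, while the stage 12 pileup also declines within the shaded classes, to 35.1 times the floor over 200 kb.

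The authors' region score, capped at 1000, was at the cap for 93.5% of solitary regions at stage 12 (95% Wilson interval 92.4% to 94.4%), against 90.4% of other shared regions (90.04% to 90.7%). At stage 10 the shares were 67.6% (65.6% to 69.5%) and 64.7% (64.2% to 65.3%). Among regions listed at both stages, isolation did not go with a smaller share at the cap. Solitary regions listed at a single stage ranked far lower in their lists: 49.4% of the 1505 listed at stage 12 only were at the cap of the stage 12 list, and 16.3% of the 649 listed at stage 10 only were at the cap of the stage 10 list.

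Those single-stage solitary regions were also narrower and weaker than the shared ones. Their median width was 585 bp at stage 12 only and 390 bp at stage 10 only. In solitary shared regions the intervals of 1 stage covered a median of 929 bp at stage 12 and 802 bp at stage 10. The median pileup was 14.7 times the floor at stage 12 only, where solitary shared regions had 41.7. It was 15.4 times at stage 10 only, where solitary shared regions had 26.8. Single-stage regions that were not solitary were not compared in score, width or pileup. Whether these differences are particular to solitary regions was therefore not tested. Of the 4367 solitary merged regions of any kind, 50.7% were shared between the stages (95% Wilson interval 49.2% to 52.2%), against 46.0% of regions that were not solitary (45.6% to 46.4%). The shared portion was 47.1% within 1 kb of a neighbour, 42.3% at 1 to 5 kb and 45.6% at 5 to 20 kb, and it stood between 48.5% and 51.1% in the classes beyond 20 kb. Overlapping intervals of both stages merge into a single shared region, which can be solitary. Nearby intervals of different stages that do not overlap become neighbours, and neither can be solitary. The definition therefore favours a higher shared portion among solitary regions. How much of the difference follows from this was not tested.

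Between the stages most solitary regions had a higher pileup over the floor at stage 12. The median log2 ratio of stage 12 to stage 10 was 0.60 (interquartile range 0.22 to 0.90), against 0.48 in other shared regions. Counted at a limit of 1.5-fold, 1147 of 2213 solitary regions were higher at stage 12 (51.8%, 95% Wilson interval 49.7% to 53.9%), beside 43.2% of all 29444 shared regions. Lower by 1.5-fold were 110 (4.97%, 4.14% to 5.96%), beside 6.91% of all shared regions. Other shared regions 5 to 50 kb from a neighbour came close to the solitary ones, at 49.7% higher and 5.35% lower. Those within 5 kb of a neighbour had 37.6% higher and 8.23% lower. The median of all shared regions was itself 0.49 on the log2 scale. Whether this is a difference in scale between the lists or in accessibility was not tested.

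With the ratios centred on the median of all shared regions, 294 solitary regions were at least 1.5-fold higher at stage 12 (13.3%), beside 11.6% of all shared regions, and 304 were at least 1.5-fold lower (13.7%), beside 19.1%. Centring removes the shift in the median of all shared regions but does not even out their higher and lower calls at 1.5-fold. The share of lower calls was smaller in solitary regions than in all shared regions under both scalings. Over the floor it was close to the 5.35% of other shared regions 5 to 50 kb from a neighbour. Centred calls were not counted in that set. The difference of medians, which no scaling of a whole list can change, was 0.12 on the log2 scale. The solitary median was the higher on 18 of 18 chromosomes. Against the shared regions lying 5 to 50 kb from a neighbour, whose median was 0.58, the difference was 0.024.

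**Figure D3:**
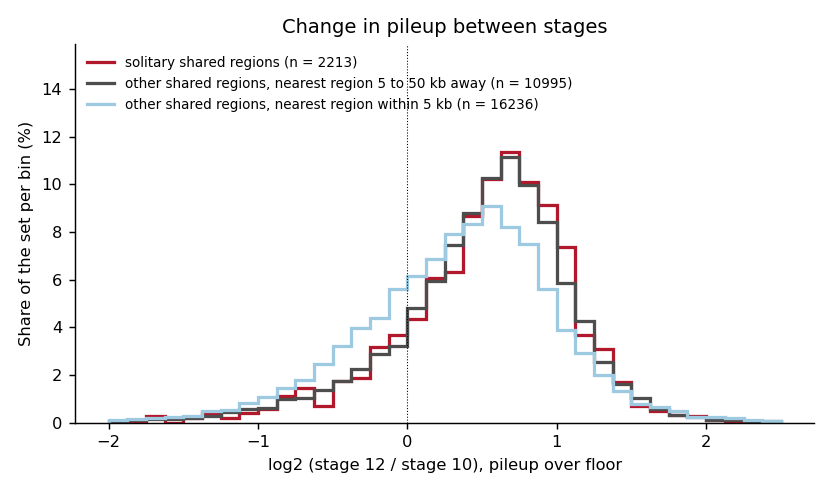
Change in pileup between stages as log2 of stage 12 over stage 10, each over its floor (x axis, dotted line at 0), against the share of each set per bin in percent (y axis); values outside -2 to 2.5 are not drawn. The solitary regions and the regions 5 to 50 kb from a neighbour have nearly the same curve, with medians of 0.60 and 0.58, and regions within 5 kb of a neighbour lie lower, with a median of 0.41.

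The solitary regions were not uniform in this change. The 80 with a single summit at stage 12 had a median log2 ratio of -0.33, a median width of 293 bp and a stage 12 pileup of 16.5 times the floor. Those with 2 to 3 summits (654 regions) had a ratio of 0.59, those with 4 to 5 (958 regions) 0.65 and those with 6 or more (521 regions) 0.60. The stage 12 pileup rose with the number of stage 12 summits, to 57.0 times the floor at 6 or more. Grouping by stage 12 summits therefore itself favours a low ratio in the single-summit group. Other shared regions with a single summit at stage 12 had a ratio of -0.03 and a pileup of 29.8 times the floor. By stage 12 pileup, single-summit regions were thus the weakest in both sets and weaker among the solitary ones. Between the sets the fold enrichment of single-summit regions went the other way. It was 12.6 in solitary regions against 7.85 in other shared regions at stage 12, and 11.1 against 7.29 at stage 10. Their median stage 12 background was 1.00 times the floor, against 3.66 times in other shared regions.

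The position of the best summit was close at both stages. The stage 12 and stage 10 summits lay a median of 9 bp apart in solitary regions, against 8 bp in other shared regions. They were within 10 bp of each other in 54.7% of solitary regions, against 57.3%. They were more than 150 bp apart, about the length of DNA on a nucleosome, in 15.3%, against 13.8%. Of the bases covered at either stage, a median of 86.6% were covered at both in solitary regions, against 86.4% in other shared regions.

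The stretches around the solitary regions were long and not rare. The median distance to the nearest other merged region was 81.7 kb, and 776 solitary regions (35.1%) had none within 100 kb. From the neighbour on the left to the neighbour on the right the median stretch was 262 kb. Together these stretches, counted once where they overlap, spanned 666 Mb, or 26.6% of the 2507 Mb of chromosome up to the last listed regions. The neighbours that ended them were shared regions in 49.4% of cases, listed at stage 12 only in 37.0% and listed at stage 10 only in 13.7%, against 46.4%, 39.5% and 14.1% of all merged regions.

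From 200 kb outward, beyond the empty stretch that the definition imposes, the surroundings of solitary regions were sparser than those of other shared regions. There they were close to the average of the chromosomes. A median of 18 other merged regions lay within 500 kb of the centre of a solitary region, against 34 for other shared regions. This count includes the 50 kb on each side that the definition empties, so part of the difference follows from the definition. At 900 to 1000 kb from the centre the density was 23.3 merged regions per Mb around solitary regions, against 30.2 per Mb around other shared regions. Over all chromosomes the density was 25.3 merged regions per Mb. Of 2498 windows of 1 Mb, 7.29% had at most 5 merged regions and 10.4% had 6 to 10. These held 5.66% and 12.4% of the solitary regions in full windows, against 0.503% and 2.65% of the other shared regions. The solitary shares were thus close to the shares of windows. Crowded windows of more than 40 merged regions made up 16.0% of the windows. They held 7.75% of the solitary regions, against 36.6% of the others. The windows also include the emptied stretches, so the definition favours these differences between the sets.

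**Figure D4:**
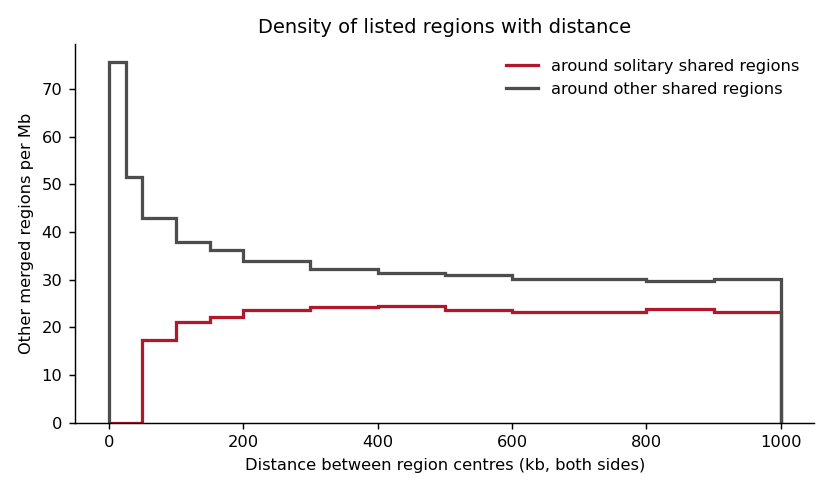
Number of other merged regions per Mb (y axis) by distance between region centres in kb, both sides together (x axis), around solitary shared regions and around other shared regions. The empty first 50 kb follows from the definition; from 200 kb outward the density around solitary regions stays between 23.2 and 24.5 per Mb, below the 29.7 to 33.9 per Mb around other shared regions.

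Solitary regions occurred both singly and in short runs. Counting along the chromosomes, 1449 of them stood between neighbours that were not solitary shared regions, 279 pairs and 65 longer runs followed each other directly, and the longest run had 7. Runs of 2 or more held 34.5% of solitary regions. Of the regions that flank a solitary shared region, 19.0% were solitary and shared themselves, against 3.48% of all merged regions, and the definition favours this, since such a flank is already empty on one side. The nearest other solitary shared region lay a median of 384 kb away (interquartile range 162 to 772 kb). Solitary regions were found less at the chromosome ends than other shared regions. Within 5 Mb of the outermost listed region lay 4.07% (95% Wilson interval 3.32% to 4.97%), against 12.1% of other shared regions (11.8% to 12.5%). Within 20 Mb lay 23.2%, against 34.3%. A denser stretch leaves fewer solitary regions by definition, and the density of merged regions near the ends was not measured.

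Xenopus laevis arose from a cross of a pair of species and carries a longer (L) and a shorter (S) copy of each ancestral chromosome. The L chromosomes held 51.8% of solitary regions (49.7% to 53.9%), against 58.9% of other shared regions (58.3% to 59.5%), and make up 54.6% of the chromosome length. Of the shared regions on L chromosomes 6.67% were solitary, against 8.70% of those on S chromosomes. The S share was the higher in 7 of 9 pairs, and pairs 5 and 7 had the opposite order. Per Mb of chromosome there were 0.839 solitary regions on L and 0.936 on S. By this measure S was the higher in 6 of 9 pairs, with pair 6 also in the opposite order (0.994 on L and 0.951 on S). The widest gap in share was in pair 3, with 4.22% on chromosome 3L and 9.43% on 3S. Chromosome 3L also had the highest density of merged regions, 35.4 per Mb, beside 22.1 per Mb on 3S. This density was lower on S than on L in every pair. The gap was smallest in pairs 7 (25.7 on L and 25.1 on S) and 5 (23.1 and 21.7). A lower density leaves more regions without a neighbour within 50 kb, so the definition favours a higher solitary share on S. Whether the density accounts for the difference between L and S was not tested.

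**Figure D5:**
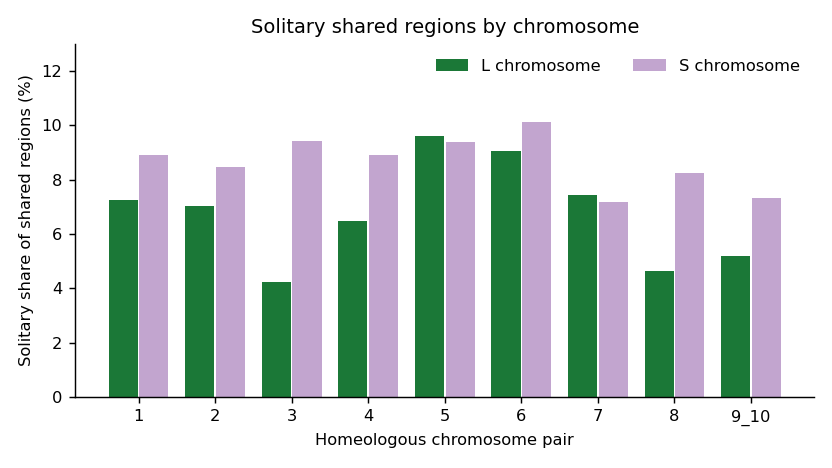
Solitary shared regions as a percentage of all shared regions on a chromosome (y axis), for the L and the S chromosome of each homeologous pair (x axis). The shares run from 4.22% on 3L to 10.1% on 6S, and S is above L in 7 of 9 pairs.

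The most isolated of the solitary shared regions was chr2S:15734348-15735399, with 643 kb to the left and 778 kb to the right. It was 1052 bp wide, had 4 summits at stage 12 and 3 at stage 10, and its pileup over the floor was 28.1 at stage 12 and 20.9 at stage 10. The next were chr6S:40764041-40764911, chr6L:78736787-78737346, chr2S:82343677-82344478 and chr2S:38527799-38528597, with nearest neighbours 625, 603, 525 and 519 kb away. Their stage 12 pileups were 34.2, 15.5, 44.9 and 30.8 times the floor. The region on 6L was the only one of the 5 with a lower pileup at stage 12 than at stage 10, at a log2 ratio of -0.22, and its background was at the floor at both stages.

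The highest pileups belonged to a pair of regions far above the rest. chr8L:99757282-99759830, 2549 bp wide with 16 summits at each stage, had 18167 reads at its best summit at stage 12 (3864 times the floor) and 9121 at stage 10 (4138 times). chr3L:143065955-143068088 had 9119 reads at stage 12 and 4638 at stage 10. Both had a local background over 200 times the floor at both stages and a fold enrichment below the median of solitary regions, 8.57 at stage 12 and 8.50 at stage 10 on 8L and 9.64 and 9.97 on 3L.

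The next by stage 12 pileup were chr1L:83672157-83672961, at 420 times the floor, chr4L:109106873-109107371, at 281 times, and chr5S:113349938-113350875, at 225 times. The region on 4L had the highest stage 12 fold enrichment of all solitary regions, 51.5, and was lower at stage 12 than at stage 10 by a log2 ratio of -1.35. Pileups above 10 times the median of other shared regions at either stage occurred in 6 solitary regions (0.271%). They occurred in 60 other shared regions (0.220%), a similar share. The limit was passed at both stages in 2 of the 6 and 17 of the 60.

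At the other end the 5 lowest stage 12 pileups were between 8.93 and 9.57 times the floor. They belonged to chr2S:47037347-47037615, chr3L:133354803-133355597, chr1S:6048461-6048759, chr1S:57089619-57089809 and chr4S:110809933-110810333. Each had a single summit at stage 12 over a background at the floor, and a stage 12 score between 560 and 628. Each also had a lower pileup over the floor at stage 12 than at stage 10. Picking on low stage 12 pileup itself favours a low stage 12 score and a lower value than at stage 10.

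Single regions departed widely from the median change between stages. The highest ratio was at chr3L:82167881-82168683, with 407 reads at stage 12 and 39 at stage 10, a log2 ratio of 2.29 over the floors. It was followed by chr9_10S:45361891-45362477, with 175 reads at stage 12 and 17 at stage 10, and chr2L:73900474-73900904, with 291 and 29 reads. All 3 were at the top score at stage 12 and between 610 and 744 at stage 10.

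The lowest ratio was at chr7L:126820072-126821076, the last listed region of its chromosome, with 140 reads at stage 12 and 2055 at stage 10, a log2 ratio of -4.97. It was followed by chr6S:56144586-56144758, with 226 and 871 reads, and chr5L:139950962-139951049, with 206 and 440 reads. These 3 were at the top score in both lists. On 6S and 5L a single summit stood in an interval of 173 and 88 bp with the same width at both stages.

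The widest solitary regions were chr4S:27340216-27343239, 3024 bp with 17 summits at stage 12 and 18 at stage 10, chr1L:55689359-55692203, 2845 bp with 11 and 8 summits, and chr4L:56014202-56016751, 2550 bp with 11 and 13 summits. On 1L the stage 12 interval covered all 2845 bp, against 1759 bp at stage 10. Their stage 12 fold enrichments were 8.22, 7.53 and 7.51.

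Just beyond the 50 kb limit lay chr5L:37021781-37022636, chr9_10S:8995703-8996791 and chr9_10S:93213497-93214081, each 50.01 kb from its nearest neighbour, with stage 12 pileups of 31.3, 46.6 and 19.8 times the floor. Just within it lay chr7L:6392145-6393009, at 49.99 kb, and chr6S:84728375-84729321 and chr9_10S:79544740-79545524, both at 49.97 kb, with stage 12 pileups of 37.7, 30.4 and 38.1 times the floor.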

How the data were processed

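The 6 ATAC-seq libraries, 3 per stage, were assigned to a stage from their titles. The submitters' processing notes name the build xenLae2 and bcl2fastq 2.20; the aligner, peak caller, filters, Tn5 shift and pooling of replicates are not given in the sources used here, and no reference genome of that build was used, so no sequences are printed. Per the labels, 1 list per stage was deposited, with 179410 summit rows at stage 12 and 129900 at stage 10, in narrowPeak column order. The score deposited for each region runs from 540 to 1000. The deposited fold enrichment is a ratio of pileup to local background, with 1 added to both. The −log10 p, as deposited, matches a Poisson upper tail. The deposited summit offset counts bases from the region start. The depth of a library is unknown; reads per summit were solved from fold and −log10 p, with whole-number solutions within 0.01 for 99.93% of summits at stage 12 and 99.95% at stage 10, and the closest solution was used for the rest. The solver was tested on simulated data.

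Identical intervals were joined and both lists merged at 1 bp of overlap with Python 3.11.15 and pandas 2.3.3; bedtools 2.31.1 gave the same 63505 merged regions. A region took the summit with the highest −log10 p. Named regions are the 5 most isolated, the 5 highest and 5 lowest in stage 12 pileup, the 3 highest and 3 lowest in stage ratio, the 3 widest and 3 on each side of the 50 kb limit. Alternatives changed the limit, overlap, threshold, merging, chromosome ends, summit choice and comparison set. The members and these choices were made with earlier results of these data known.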

Additional observations from a re-analysis of the deposited data

Results flagged for a closer look

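Unplaced scaffolds were outside the definition used and also carried shared regions. They held 6977 merged regions, of which 3549 were shared by both stages, and 1126 of the shared regions were the only listed region on their scaffold. These 1126 had a median width of 595 bp. Their median fold enrichment was 21.6 at stage 12 and 16.9 at stage 10, and their median pileup over the floor was 30.4 at stage 12 and 26.8 at stage 10. The distance from such a region to its true neighbours is unknown, so they cannot be counted as solitary.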

How the results depend on the processing

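No paired analysis was possible because the 2 lists hold no values of single libraries, and for that reason no replicate was left out. Across 56 alternative values of 7 results, 35 stayed within the 95% interval of the main value (for the number of regions, within 1.5 times), 18 moved and 3 reversed. For medians this interval was taken over the solitary regions, with the median of the comparison set held fixed. It treats regions as independent and covers no spread between libraries. With a limit of 25 kb there were 4765 solitary shared regions, and with 100 kb 776. With only the upper 50% of each list by −log10 p there were 3031, against 2213 in the full lists. That is within 1.5 times, but the number of solitary regions thus also depended on the threshold of the lists. The ratio of median widths was 1.34 at 25 kb, 1.19 in the upper 50% of each list by −log10 p, and 1.06 against shared regions 5 to 50 kb from a neighbour, a comparison set chosen after the data were seen. The share with a single summit at both stages was 0.792% in the upper 50%. The stage 12 pileup ratio was 0.907 at 25 kb, 0.821 at 100 kb, 0.5455 among single-summit regions and 0.916 against regions 5 to 50 kb from a neighbour, and it reversed to 1.34 with the deposited fold. The stage 10 ratio was 0.805, 0.740, 0.621 and 0.894 in the same order, 0.835 in the upper 50%, and reversed to 1.26 with the deposited fold, which divides by the local background. The difference in log2 stage ratio was 0.077 at 100 kb and 0.024 against regions 5 to 50 kb from a neighbour, and reversed to -0.36 among single-summit regions, of which 51 were solitary; the cause was not tested. At 100 kb 47.3% of solitary regions lay on L chromosomes. The deposited fold was not used for the stage ratio, since folds describe a region within its own list.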

Other observations

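Neighbouring summits within an interval were slightly farther apart in solitary regions. The median spacing was 185 bp in solitary regions at stage 12 (7454 spacings), against 175 bp in other shared regions (68491 spacings). At stage 10 it was 175 bp (6471 spacings), against 162 bp (61217 spacings). The interquartile ranges overlapped widely, at 123 to 233 bp and 119 to 228 bp at stage 12. Solitary regions had more summits at stage 12 than at stage 10 in 40.6% of cases and fewer in 20.1%, against 34.2% and 21.01% of other shared regions. Whether the higher floor of the stage 12 list contributes to these counts was not tested.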
